A study of Mus musculus with 24 samples.

Results

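The genes that make, take up and export cholesterol were followed in mouse CD4 T cells of the wild type and of the Batf1/3DKO genotype. The list held 32 genes, 29 of which had a probe set on the array that carried their symbol and no other, out of 19938 genes measured in that way. For a gene with more than 1 probe set, the brightest was used, by mean log2 intensity over all arrays. Nr1h2, Acat2 and Soat1 had no such probe set in the annotation table and were not analysed here. The 29 genes fall into 6 enzymes of the mevalonate arm, 11 enzymes from squalene to cholesterol, 5 regulators of the SREBP system, 4 genes of LXR and its efflux targets, and 3 intracellular sterol carriers.

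The study used 24 arrays in 8 groups of 3. All groups started from naive CD4 T cells of the 129SvEv strain. Wild type (WT) cells and cells labelled Batf1/3DKO (DKO), a double knockout of the AP-1 family factors Batf and Batf3, were taken without stimulation at day 0, at day 2 of culture, and at day 4 with 2.2 or 10 ng/ml of anti-CD3e. Cultured cells received soluble anti-CD3e, which triggers the T cell receptor, together with anti-CD28 held by plate-bound anti-hamster IgG, in TH2-polarizing conditions. The cultured groups are called activated below. No group was cultured without anti-CD3e. In comparisons with day 0, stimulation therefore cannot be told apart from time in culture or the polarizing conditions. The labels give no anti-CD3e dose for day 2 and do not state whether the 3 replicates of a group were separate mice or cultures. The tests therefore weigh differences against the spread among these arrays alone, and that spread may be technical. In such bulk samples, fewer cells expressing a gene and less RNA per cell cannot be told apart.

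Cholesterol is built from acetyl-CoA through mevalonate to squalene, which is then cyclized to lanosterol and trimmed by demethylases, reductases and isomerases. SREBP-2, encoded by Srebf2, switches on almost the whole route when sterols in the endoplasmic reticulum fall. SCAP escorts the factor to the Golgi and the INSIG proteins hold it back when sterols are plentiful. The LXR receptors work in the opposite sense: oxysterols activate them, and they raise the exporters Abca1 and Abcg1 and the ubiquitin ligase Mylip (also called IDOL), which lowers cholesterol uptake. T cells entering division need membrane sterol, and T cell receptor signals are known to raise synthesis and lower LXR activity.

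Promoter sequences are shown for 5 enzymes whose values carry the results below: Hmgcs1, Cyp51, Nsdhl and Idi1, which changed order between the genotypes with dose, and Hsd17b7, which did not and was chosen after its values were seen. Each line gives the 200 bases before the RefSeq start, 5′ to 3′ along the gene, in build GRCm38.p6. Capitals mark a match to TCACNCCAC, a form of the sterol regulatory element, or to CCAAT, the NF-Y box, on either strand. CCAAT on the other strand reads ATTGG.
Hmgcs1: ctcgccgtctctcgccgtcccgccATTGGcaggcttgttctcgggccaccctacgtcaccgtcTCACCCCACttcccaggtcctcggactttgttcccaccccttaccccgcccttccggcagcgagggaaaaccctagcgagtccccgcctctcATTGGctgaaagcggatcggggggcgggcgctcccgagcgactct
Cyp51: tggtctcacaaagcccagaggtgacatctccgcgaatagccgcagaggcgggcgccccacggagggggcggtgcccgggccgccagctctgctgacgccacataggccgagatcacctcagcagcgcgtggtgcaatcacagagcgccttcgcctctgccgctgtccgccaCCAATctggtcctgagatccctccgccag
Nsdhl: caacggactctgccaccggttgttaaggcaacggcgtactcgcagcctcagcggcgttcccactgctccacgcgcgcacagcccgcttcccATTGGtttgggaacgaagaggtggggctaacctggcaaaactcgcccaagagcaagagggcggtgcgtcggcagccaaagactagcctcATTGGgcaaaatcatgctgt
Idi1: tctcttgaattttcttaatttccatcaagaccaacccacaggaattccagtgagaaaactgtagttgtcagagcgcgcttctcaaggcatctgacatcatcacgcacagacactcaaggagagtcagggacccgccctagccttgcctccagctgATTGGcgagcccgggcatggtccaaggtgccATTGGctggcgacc
Hsd17b7: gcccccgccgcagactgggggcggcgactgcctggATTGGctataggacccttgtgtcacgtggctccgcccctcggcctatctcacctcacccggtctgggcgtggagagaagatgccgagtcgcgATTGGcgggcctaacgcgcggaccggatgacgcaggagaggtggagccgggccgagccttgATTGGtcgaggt
These stretches are chr13:119690151-119690350 on the plus strand for Hmgcs1, chr5:4104698-4104897 on the minus strand for Cyp51, chrX:72918321-72918520 on the plus strand for Nsdhl, chr13:8885406-8885605 on the plus strand for Idi1 and chr1:169969206-169969405 on the minus strand for Hsd17b7. The Hmgcs1 stretch holds 1 TCACNCCAC match and 2 CCAAT matches, Cyp51 holds 1 CCAAT match, Nsdhl and Idi1 hold 2 each, and Hsd17b7 holds 3.

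RefSeq promoter windows from 250 bases before to 50 after the start were matched for 26 of the 32 listed genes. The others, Sqle, Abcg1, Fdft1, Fdps, Stard4 and Npc1, had no window. CCAAT, on either strand, stood in 21 of the 26 windows, against 41.1% of the 27025 genes with a window. GGGCGG, an Sp1 box, stood in 23 of the 26, against 38.2% of all genes. TCACNCCAC was found in Hmgcs1 only among the members, against 1.44% of all genes. Only exact matches were counted, so variants of the sterol regulatory element were not searched for. TGANTCA, the AP-1 site, was found in Dhcr7 and Msmo1, against 8.97% of all genes. All 4 were searched on both strands, and none of them contains another. A match is a description of these letters, not evidence of binding.

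Array medians lay between 26.4 and 31.6 intensity units, and replicate arrays correlated at 0.983 to 0.992 over all genes. The knockout labels were borne out by the targeted genes: Batf read 114 to 1696 on WT arrays and 26.7 to 52.1 on DKO arrays, and Batf3 read 110 to 173 in WT cells at 10 ng/ml and 24.7 to 33.3 in DKO cells at that dose. The 5 T cell markers fixed for the check were all above background in every group. Replicate 3 of WT cells at 2.2 ng/ml stood apart in activation genes, with Irf4, a graded target of receptor signal, at 588 against 267 and 338 on the other arrays. Its synthesis gene level lay between those of the other two. Intensities are RMA values on a linear scale, a reading of 28.6 was taken as the background guide, and levels are compared within a gene, never between genes. A gene is said to have risen or fallen where limma's moderated test gave a Benjamini-Hochberg adjusted p under 0.05 over 19938 genes.

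Resting cells of both genotypes had low levels of the synthesis genes, and nearly all of these genes were higher in activated cells. The effect of dose then depended on genotype. Averaged over the 17 synthesis enzymes, log2 intensity was 6.03 ± 0.18 (SD, n = 3) in WT and 6.06 ± 0.15 in DKO cells at day 0, and 7.67 ± 0.14 and 7.26 ± 0.17 at day 2. At day 4 with 2.2 ng/ml it was 7.57 ± 0.09 in WT and 6.83 ± 0.17 in DKO cells. With 10 ng/ml it was 7.57 ± 0.01 in WT and 8.13 ± 0.10 in DKO cells. WT arrays at the 2 doses overlapped, between 7.47 and 7.66 at the lower and between 7.56 and 7.58 at the higher. The DKO arrays did not, with 6.63 to 6.94 at the lower dose and 8.02 to 8.21 at the higher. The DKO arrays thus lay below all WT arrays at 2.2 ng/ml and above all of them at 10 ng/ml.

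**Figure D1:**
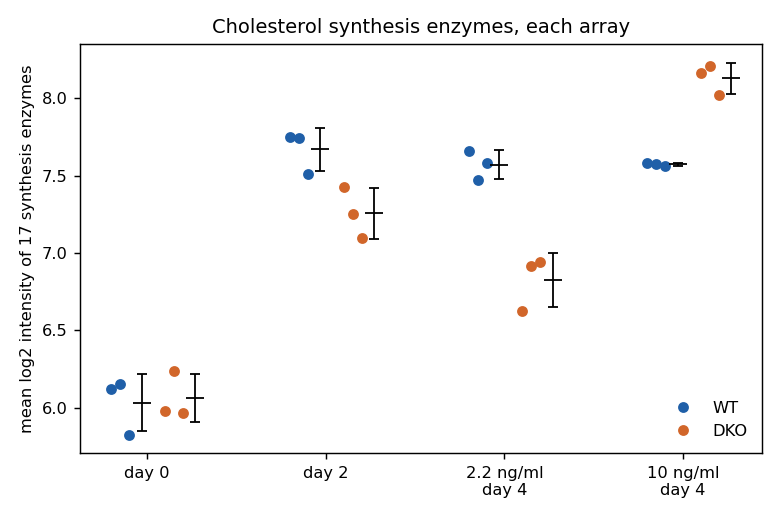
Mean log2 intensity of 17 cholesterol synthesis enzymes (y axis) on each array (points) by state (x axis) for WT (blue) and DKO (orange) cells, with the group mean and SD (black, n = 3). The DKO mean is 6.83 at 2.2 ng/ml and 8.13 at 10 ng/ml, and the WT mean is 7.57 at both.

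Activated WT cells had higher levels of the synthesis genes than day 0 cells, at day 2 and at both doses of day 4. At day 2, 20 of the 29 genes had risen and 4 had fallen, where 19.7% of all genes rose and 20.5% fell. At day 4, 20 rose and 2 fell at 2.2 ng/ml, against 16.1% and 13.1% of all genes, and 20 rose and 3 fell at 10 ng/ml, against 18.4% and 18%. The synthesis enzymes accounted for 16, 17 and 16 of those that rose. Idi1, which isomerizes isopentenyl pyrophosphate, rose 8.29-fold by day 2 (95% CI 6.05 to 11.4), Cyp51, the lanosterol demethylase, 6.03-fold, and Hmgcs1, the cytosolic HMG-CoA synthase, 5.35-fold. Mvk, the mevalonate kinase, was the one enzyme that did not pass the test at day 2, at 71.3 ± 10.7 against 58.5 ± 7.39 at day 0 (SD, n = 3, adjusted p = 0.101).

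Activated DKO cells had higher levels of the synthesis genes than day 0 cells too. Fewer members passed the test than in WT cells at day 2 and at the low dose, and so did fewer of all genes. At day 2, 15 genes rose and 5 fell, where 15.3% of all genes rose and 13.3% fell. At 2.2 ng/ml 13 rose and 4 fell, against 11.6% and 8.28%, and with 10 ng/ml 22 rose and 4 fell, against 16.4% and 14.3%. All 17 enzymes had risen at 10 ng/ml, from Mvk at 1.61-fold and Ebp, a sterol isomerase, at 1.86-fold to Fdps, the farnesyl pyrophosphate synthase, at 8.08-fold and Idi1 at 8.79-fold. At 2.2 ng/ml the 4 enzymes that did not pass were Mvk, Tm7sf2, Nsdhl and Dhcr7, with changes between 1.08-fold and 1.39-fold.

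**Figure D2:**
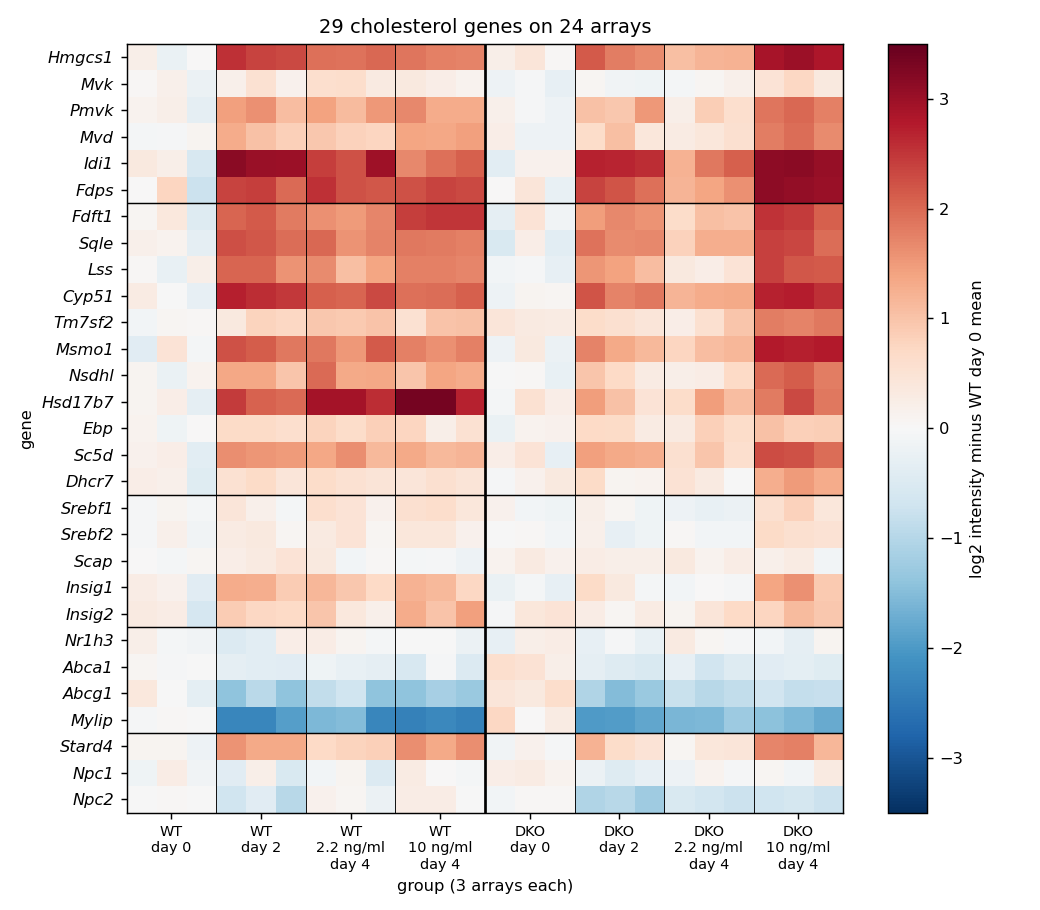
Log2 intensity of the 29 genes (rows, grouped by role) on each of the 24 arrays (columns), minus the gene's WT day 0 mean; red is higher and blue lower, with the scale in log2 units. Of the 17 synthesis rows 15 have their highest mean in DKO cells at 10 ng/ml, a share that was not counted over all genes. Abcg1 and Mylip are blue in every activated group.

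In WT cells a higher dose of anti-CD3e changed these genes about as often as all genes. Between 2.2 and 10 ng/ml, 4 of the 29 rose and 1 fell, where 7.64% of all genes rose and 7.52% fell. Fdft1, the squalene synthase that commits farnesyl pyrophosphate to sterols, read 356, 332 and 382 at 2.2 ng/ml and 627, 665 and 668 at 10 ng/ml. The Fdft1 groups did not overlap, and the rise was 1.83-fold (95% CI 1.40 to 2.40, adjusted p = 0.00148, limma). Stard4, a cytosolic sterol carrier, rose 1.69-fold (adjusted p = 0.00299) and Mvd, the mevalonate pyrophosphate decarboxylase, 1.47-fold (adjusted p = 0.0119). These 3 calls held under every alternative tried.

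Insig2 and Mylip completed the WT dose response with less stable calls. Insig2, a retention factor for SCAP that is not itself a strong SREBP target, rose 1.67-fold (adjusted p = 0.0205), a call lost under 6 of 16 alternatives. Mylip fell by 0.54 on the log2 scale (adjusted p = 0.0390), a call lost under 7 of 16, and its groups overlapped at 37.3 to 63.0 and 34.9 to 38.0. The count of 5 became 3 without replicate 1 or without replicate 3 of WT cells at 10 ng/ml. Of the 15 enzymes that did not pass the test, the 95% intervals of the log2 change ran from −1.08 at the lowest to 0.84 at the highest, so changes within those bounds could not be told from none. The lowest bound belonged to Idi1, which read 334, 292 and 488 at 2.2 ng/ml and 202, 240 and 266 at 10 ng/ml. Those groups did not overlap, and the change of −0.63 ± 0.22 (SE, log2) had an adjusted p of 0.0579.

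In DKO cells the same step in dose raised most of the list. Of the 29 genes, 20 rose and none fell, where 4.47% of all genes rose and 3.68% fell. Among the synthesis enzymes 16 of 17 rose, by 1.38-fold to 3.71-fold, with a median log2 change of 1.39 against −0.01 over all genes and against −0.09 for the same enzymes in WT cells. The calls of Mvk, at the low end, and Hsd17b7 were lost under 6 and 2 of 15 alternatives. For all 17 the arrays at the 2 doses did not overlap in DKO cells, a share that was not counted over all genes. Ebp was the exception in the test, with 66.6, 95.2 and 83.0 against 109, 95.3 and 97.1 (adjusted p = 0.274).

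**Figure D3:**
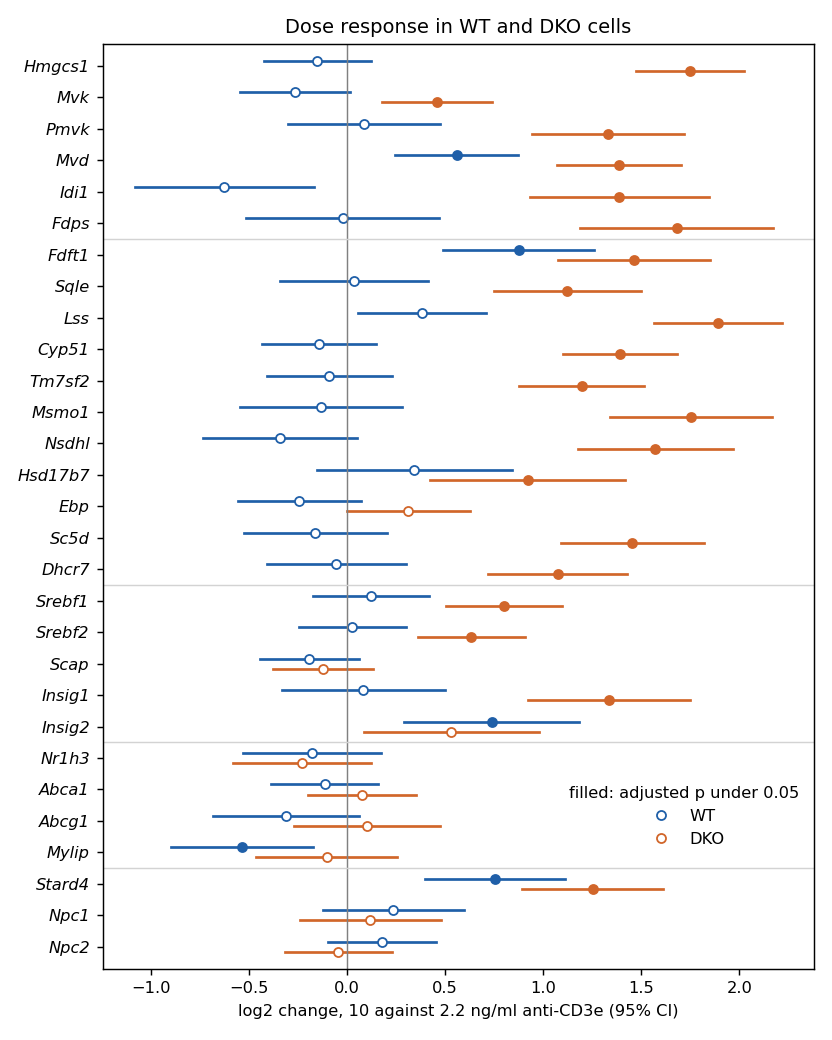
Log2 change from 2.2 to 10 ng/ml anti-CD3e (x axis, point with 95% CI) for each of the 29 genes (y axis) in WT (blue) and DKO (orange) cells; filled points have an adjusted p under 0.05. For 14 of the 17 synthesis enzymes in the top blocks the DKO interval lies wholly above the WT interval, a share that was not counted over all genes.

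The difference between the 2 dose responses was tested directly as an interaction. It was positive, meaning a larger change in DKO cells, for 17 of the 29 genes and negative for none, where 3.56% of all genes were called positive and 3.38% negative. The 17 were 14 synthesis enzymes with Insig1, Srebf1 and Srebf2. The median over the synthesis enzymes was 1.29 on the log2 scale, against 0.02 over all genes. The call held for 13 genes under every one of 22 alternatives and was lost under some for Mvd, Mvk, Srebf1 and Srebf2.

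In the mevalonate arm the interaction was called for 6 of 6 enzymes. Hmgcs1 read 329, 322 and 345 in WT cells at 2.2 ng/ml and 315, 296 and 286 at 10 ng/ml. The DKO arrays read 180, 198 and 200 at 2.2 ng/ml and 634, 688 and 619 at 10 ng/ml. Hmgcs1 was thus lowest of the activated groups in DKO cells at the low dose and highest in DKO cells at the high dose, with no overlap with WT cells at either. Its dose change was 3.36-fold in DKO cells, and the interaction was 1.90 ± 0.19 (SE, log2, adjusted p = 4.01e-07).

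Idi1, for which the WT values are given above, rose with dose in DKO cells. These read 147, 226 and 265 at 2.2 ng/ml and 550, 556 and 515 at 10 ng/ml, a 2.62-fold rise. The interaction of 2.01 ± 0.31 was the highest of the list (SE, log2, adjusted p = 0.000124, limma), and the second Idi1 probe set gave dose changes of −0.60 in WT and 1.43 in DKO cells. Fdps, which makes farnesyl pyrophosphate, the last step shared with protein prenylation, read 282, 225 and 215 and then 224, 247 and 237 in WT cells. In DKO cells it read 108, 124 and 144 and then 415, 398 and 383, a 3.21-fold rise. For Fdps the WT arrays overlapped between doses and the DKO arrays did not.

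Pmvk, the phosphomevalonate kinase, rose 2.52-fold with dose in DKO cells, with an interaction of 1.25. Mvd rose in both genotypes, 1.47-fold in WT and 2.61-fold in DKO cells, with 112, 101 and 98.5 and then 152, 150 and 156 in WT against 70.5, 76.3 and 86.3 and then 200, 226 and 184 in DKO cells. Mvk had the smallest change of the arm, 1.38-fold in DKO cells, with an interaction of 0.73 (adjusted p = 0.0197). The interaction call was lost under 2 alternatives for Mvd and under 3 for Mvk.

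From squalene to cholesterol the interaction was called for 8 of 11 enzymes. Lss, which folds squalene epoxide into lanosterol, had the largest DKO dose change of the list. It read 44.9, 42.3 and 49.7 at 2.2 ng/ml and 186, 163 and 160 at 10 ng/ml in DKO cells, a 3.71-fold rise (95% CI 2.96 to 4.65). In WT cells it read 112, 74.8 and 92.4 and then 122, 121 and 117. Lss in DKO cells at the low dose was close to its day 0 level of 32.5 ± 2.88 (SD, n = 3), from which it had risen 1.40-fold.

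Nsdhl and Msmo1 carry out the removal of the C4 methyl groups, and both had interactions near 1.9. Nsdhl read 469, 300 and 302 and then 234, 308 and 291 in WT cells, and 138, 144 and 193 and then 471, 522 and 410 in DKO cells. The WT arrays of Nsdhl overlapped between doses, with replicate 1 at 2.2 ng/ml the highest of its group. Msmo1 read 253, 204 and 315 and then 241, 214 and 239 in WT cells, and 120, 149 and 159 and then 485, 464 and 481 in DKO cells. All 3 DKO arrays of Msmo1 at 10 ng/ml lay above every other array of the study, which was so for 9 of the 17 enzymes. The share of all genes with this order was not counted.

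Cyp51 read 334, 323 and 392 and then 299, 308 and 340 in WT cells, and 181, 195 and 197 and then 512, 529 and 464 in DKO cells. Its interaction was 1.54 ± 0.20 (SE, log2, adjusted p = 1.25e-05, limma). Sc5d, the lathosterol desaturase, rose 2.74-fold with dose in DKO cells and had an interaction of 1.61. Tm7sf2, a sterol C14 reductase, rose 2.29-fold and Dhcr7, which makes cholesterol from its last precursor, 2.11-fold, each with overlapping WT arrays. Sqle, the squalene epoxidase and a rate-limiting step, rose 2.18-fold in DKO cells and had an interaction of 1.09.

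Of this arm, Fdft1, Hsd17b7 and Ebp did not pass the interaction test. Fdft1 rose 1.83-fold in WT and 2.76-fold in DKO cells, where it read 184, 241 and 234 and then 676, 641 and 502, and the interaction was 0.59 (95% CI 0.04 to 1.13, adjusted p = 0.233). A second Fdft1 probe set gave log2 dose changes of 0.84 in WT and 1.62 in DKO cells. Hsd17b7, the ketosteroid reductase of the C4 demethylation complex, had an interaction of 0.58 (95% CI −0.12 to 1.28) and Ebp one of 0.56 ± 0.22 (SE). These intervals include values close to those of the called enzymes.

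Of the 5 regulators, Srebf1, Srebf2 and Insig1 rose with dose in DKO cells. Srebf2 read 414, 460 and 345 and then 434, 433 and 369 in WT cells, and 338, 307 and 310 and then 525, 487 and 470 in DKO cells. It rose 1.55-fold with dose in DKO cells (adjusted p = 0.00239), and all 3 DKO arrays at 10 ng/ml lay above all 3 at 2.2 ng/ml and all WT arrays. The interaction was 0.61 ± 0.19 (SE, log2, adjusted p = 0.0494), a call lost under 14 of 22 alternatives. Srebf1, whose products favour fatty acid genes, read 143, 134 and 105 and then 140, 146 and 125 in WT cells, and 84.8, 79.9 and 82.0 and then 141, 166 and 125 in DKO cells. Its rise in DKO cells was 1.74-fold, and the interaction of 0.68 (adjusted p = 0.0422) was lost under 12 of 22 alternatives.

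Insig1, a retention factor that is itself an SREBP target, had the largest dose change of the regulators in DKO cells. It read 607, 527 and 446 and then 631, 600 and 448 in WT cells, and 255, 277 and 266 and then 710, 832 and 512 in DKO cells. The WT arrays overlapped, the DKO arrays did not, and DKO replicate 3 at 10 ng/ml was the lowest of its group. Insig1 rose 2.53-fold in DKO cells, with an interaction of 1.25 ± 0.28 (SE, log2, adjusted p = 0.00601, limma). In DKO cells at 2.2 ng/ml its level of 266 ± 10.9 was not distinguished from 239 ± 19.3 at day 0 (SD, n = 3, adjusted p = 0.695). Insig2 read 124, 82.1 and 71.8 and then 156, 127 and 171 in WT cells, and 68.0, 85.1 and 102 and then 107, 138 and 122 in DKO cells, with an interaction of −0.20 (95% CI −0.84 to 0.43). Scap, the escort protein, had group means between 167 and 229 and passed 1 of the 14 tests, a 1.27-fold rise in WT cells at day 2 (adjusted p = 0.0258), a call lost under 6 of 16 alternatives.

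**Figure D4:**
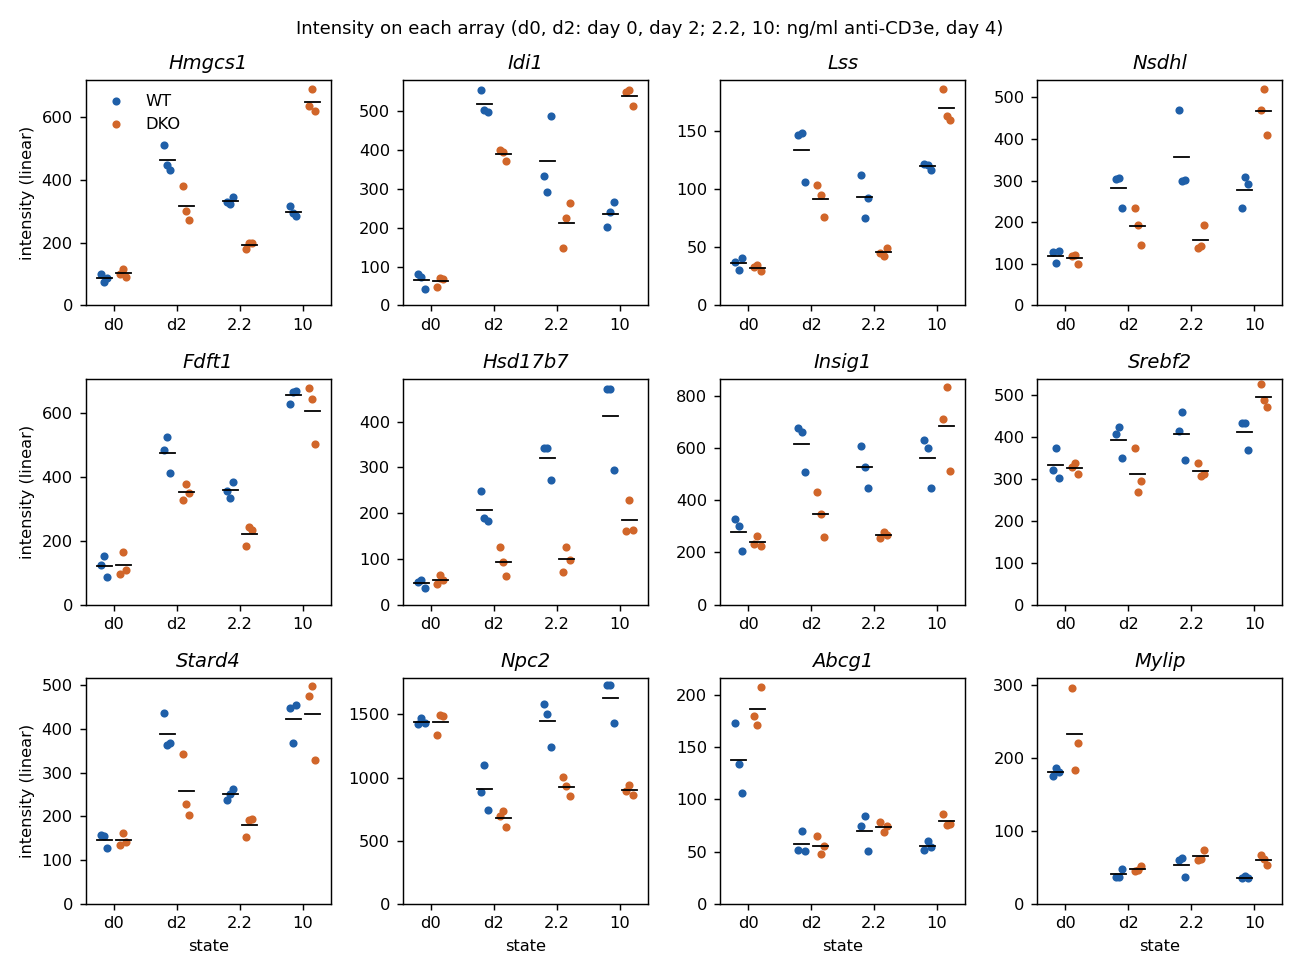
Linear intensity (y axis, from 0) on each array for 12 of the genes by state (x axis), WT in blue and DKO in orange, with group means as black lines. Hmgcs1, Idi1, Lss and Nsdhl cross between the genotypes from 2.2 to 10 ng/ml, while Hsd17b7 and Npc2 are lower in DKO cells at both doses.

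Mylip and Abcg1 were lower than at day 0 in every activated group of both genotypes. None of the 4 genes of LXR and its efflux targets passed the dose test in DKO cells. Mylip read 176, 186 and 180 in WT and 296, 183 and 220 in DKO cells at day 0, and 36.9, 37.4 and 47.5 and 45.5, 46.4 and 51.2 at day 2. It fell by 2.16 on the log2 scale in WT cells and fell by 2.26 in DKO cells, with no overlap between days, and was still lower at day 4 in both genotypes at both doses. Abcg1, which passes cholesterol to lipoproteins, read 173, 134 and 107 at day 0 and 51.1, 70.0 and 50.7 at day 2 in WT cells. In DKO cells it read 180, 171 and 208 and then 64.7, 47.3 and 55.0. It fell by 1.25 in WT and fell by 1.75 in DKO cells (log2), and the difference of −0.50 had an adjusted p of 0.369.

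At day 4 the DKO cells kept more Mylip at the higher dose. Mylip read 34.9, 38.0 and 35.3 in WT and 67.4, 61.2 and 52.9 in DKO cells at 10 ng/ml, which was 1.67-fold higher (adjusted p = 0.00450, limma). Abcg1 was 1.44-fold higher in DKO cells at that dose with no overlap, 51.1 to 59.9 against 75.4 to 85.6, and did not pass the test (adjusted p = 0.0569). Neither gene was called for the interaction, which was 0.43 (95% CI −0.08 to 0.94) for Mylip and 0.41 (−0.11 to 0.94) for Abcg1. Abca1, the exporter to lipid-poor apolipoprotein, averaged 40.2 in DKO and 29.5 in WT cells at day 0 and was under the background guide on average in all 6 activated groups, so no size is given for its change. It was called lower than at day 0 in the 3 activated DKO groups, and in WT cells at day 2 and at 10 ng/ml, where each call was lost under 8 alternatives, but not at 2.2 ng/ml (adjusted p = 0.200). Nr1h3, which encodes LXR alpha, averaged below the guide in all 8 groups (19.3 at the lowest), and no change is read from it.

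Of the 3 sterol carriers, Stard4 was the one that passed the dose tests. Stard4 read 236, 252 and 263 and then 449, 368 and 455 in WT cells, and 154, 192 and 195 and then 476, 498 and 329 in DKO cells. It rose with dose in both genotypes, 1.69-fold and 2.38-fold, and the interaction of 0.50 ± 0.24 (SE, log2) had an adjusted p of 0.295. Npc1, the lysosomal membrane exporter, had group means between 64.8 and 92.9 and passed 1 test, a 1.44-fold lower level in DKO cells at day 2 than at day 0 (adjusted p = 0.0242), a call lost under 4 of 15 alternatives. Npc2, which hands cholesterol to Npc1 in the lysosome, was lower in DKO cells at both doses.

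The genotypes were then compared within each state, which uses the same arrays as the dose comparisons. At day 0 none of the 29 genes differed, where 0.0552% of all genes were called higher and 0.01% lower, and 3 had an unadjusted p under 0.05 in limma. At day 2, 4 genes were lower in DKO cells and none higher, where 1.03% of all genes were higher and 1.68% lower. These were Hsd17b7 (2.26-fold), Insig1 (1.80-fold), Cyp51 (1.59-fold) and Hmgcs1 (1.47-fold). The count was 1 without WT replicate 1, without DKO replicate 2 or without DKO replicate 3 of day 2, 2 without WT replicate 2, and 8 without DKO replicate 1. None of the 4 calls held under every alternative.

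At 2.2 ng/ml 15 of the 29 genes were lower in DKO cells and none higher, where 1.65% of all genes were higher and 2.06% lower. All 17 synthesis enzymes were lower in sign and 12 passed the test, with a median of −0.79 on the log2 scale against 0.001 over all genes. Hsd17b7 was 3.31-fold lower, Nsdhl 2.23-fold, Lss 2.02-fold, Insig1 1.96-fold, Cyp51 1.83-fold, Hmgcs1 1.73-fold and Npc2 1.55-fold, and these 7 were called under every alternative. The other 8 were Fdft1, Fdps, Idi1, Msmo1, Pmvk, Sc5d, Sqle and Srebf1, by 1.53-fold to 1.92-fold. The count was 8 without replicate 1 of WT cells or without replicate 1 of DKO cells at this dose, and 10 without WT replicate 3.

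At 10 ng/ml 11 genes were higher in DKO cells and 2 lower, where 6.68% of all genes were higher and 6.09% lower. Idi1 was 2.30-fold higher, Hmgcs1 2.16-fold, Msmo1 2.06-fold, Sc5d 1.92-fold, Tm7sf2 1.91-fold, Dhcr7 1.82-fold and Cyp51 1.59-fold, each called under every alternative. Nsdhl (1.69-fold), Fdps (1.69-fold) and Lss (1.41-fold) were also called, with Nsdhl lost under 1 alternative and Fdps and Lss under 6 of 15. Called both lower at the low dose and higher at the high dose were 8 of the 17 enzymes: Hmgcs1, Idi1, Fdps, Lss, Cyp51, Msmo1, Nsdhl and Sc5d. In sign, 15 of the 17 enzymes crossed, and Fdft1 and Hsd17b7 did not. The shares of all genes called in both ways or crossing in sign were not counted.

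**Figure D5:**
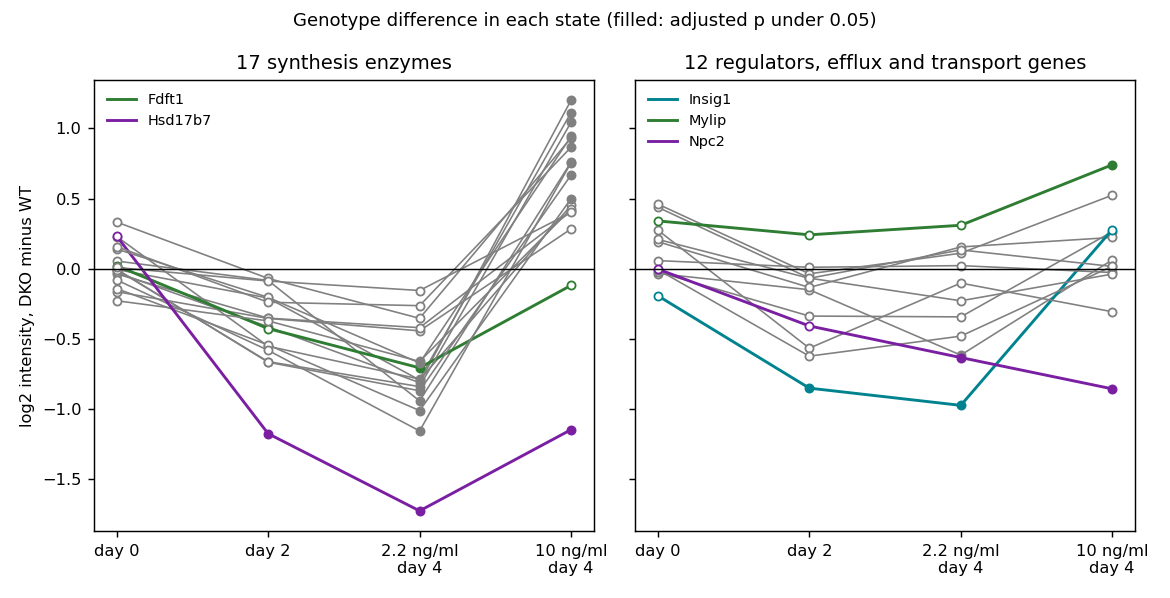
Log2 intensity in DKO minus WT cells (y axis) in each state (x axis) for the 17 synthesis enzymes (left) and the other 12 genes (right), one line per gene; filled points have an adjusted p under 0.05. Most enzymes run from below 0 at 2.2 ng/ml to above 0 at 10 ng/ml, while Hsd17b7 stays at −1.15 and Npc2 at −0.86 at the higher dose.

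Hsd17b7 and Npc2 were the pair lower in DKO cells at both doses, and Hsd17b7 also at day 2; both are singled out after their values were seen. Hsd17b7 read 343, 343 and 273 in WT and 72.0, 127 and 97.0 in DKO cells at 2.2 ng/ml. At 10 ng/ml it read 471, 472 and 294 in WT and 161, 228 and 164 in DKO cells, 2.22-fold lower (adjusted p = 0.0015). The genotypes did not overlap at either dose, although Hsd17b7 rose 1.89-fold with dose in DKO cells (adjusted p = 0.0156), where its day 0 level of 54.6 ± 10.9 matched 46.4 ± 8.49 in WT cells within the spread. Npc2 read 1585, 1503 and 1245 in WT and 1001, 930 and 854 in DKO cells at 2.2 ng/ml, and 1731, 1731 and 1435 against 895, 940 and 861 at 10 ng/ml. Npc2 was 1.81-fold lower in DKO cells at 10 ng/ml (log2 difference −0.86 ± 0.13, SE, adjusted p = 4.29e-05), and at day 0 both genotypes averaged near 1440. In WT cells Npc2 at day 4 was not distinguished from day 0, while in DKO cells it was lower than at day 0 at both doses.

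The change from day 0 to day 2 was also compared between genotypes. It was smaller in DKO cells for Hmgcs1 (−0.78 ± 0.19, SE, log2, adjusted p = 0.0416) and Hsd17b7 (−1.41 ± 0.34, adjusted p = 0.0428) and larger for none, where 0.306% of all genes were called positive and 0.742% negative. Each of these calls was lost under 13 of 22 alternatives.

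Neighbouring branches of the pathway, taken from lists of known genes, were counted for the interaction, which was positive for 3.56% and negative for 3.38% of all genes. Of 13 measured genes of the isoprenoid branch, which turns farnesyl pyrophosphate into prenyl groups, dolichol and ubiquinone, 0 were called positive and 1, Rabggta, negative. Ggps1, which makes geranylgeranyl pyrophosphate, fell by 0.41 on the log2 scale with dose in WT cells and was not called in DKO cells. Of 6 genes of SREBP processing and sterol sensing, 1 was positive (Pgrmc1, 1.14) and 1 negative (Erlin1, −1.05). Of 15 sterol transport and ester turnover genes, 3 were positive, among them Gramd1b (0.81), and 3 negative, among them Osbp (−0.81). Of 4 other LXR targets 2 were positive, Smpdl3a (1.40) and Lpcat3 (0.78), and of 7 oxysterol enzymes and receptors 1 was, Gpr183 (1.36), the receptor of an oxysterol.

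Fatty acid targets of SREBP also rose with dose in DKO cells. With dose, 8 of 11 measured genes rose in DKO cells and none fell, where 4.47% and 3.68% of all genes did so. In WT cells 3 rose and 2 fell, against 7.64% and 7.52%. The interaction was positive for 5 of 11, against 3.56% of all genes. Scd1, the stearoyl-CoA desaturase, rose 7.59-fold in WT and 113-fold in DKO cells, while Lpin1 (2.64-fold and 2.52-fold) and Acss2 (1.99-fold and 1.73-fold), which makes acetyl-CoA from acetate, rose in both.

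Cell division genes also had positive interactions. Of 9 measured genes, 5 fell and none rose with dose in WT cells, where 7.52% of all genes fell, with a median of −0.51 (log2). In DKO cells 2 rose and none fell, where 4.47% of all genes rose, with a median of 0.31. The interaction was positive for 7, against 3.56% of all genes, with a median of 1.03. Mki67 fell by 0.74 with dose in WT cells and was not called in DKO cells, and its interaction was 1.05. The mean log2 level of these 9 genes was 9.17 to 9.49 in WT and 8.91 to 9.05 in DKO arrays at 2.2 ng/ml, and 8.74 to 8.95 in WT and 9.32 to 9.40 in DKO arrays at 10 ng/ml. At day 2 it was 9.43 to 9.49 in WT and 9.25 to 9.45 in DKO arrays. The part of cell division in the synthesis gene result was not tested.

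Markers of other cell types were listed and summed as a further check. Of 20 measured markers of B cells, CD8 T cells, macrophages, antigen-presenting cells, NK cells and erythroid cells, 14 to 16 were at or below the background guide in each group. Their summed intensity was 605 to 758 in WT and 617 to 724 in DKO arrays at 2.2 ng/ml, and 975 to 1226 in WT and 928 to 1061 in DKO arrays at 10 ng/ml. The pooled sums overlapped between the genotypes at each dose, and those of single lists did not all do so. The macrophage and monocyte list, where 5 of 6 markers were at or below the guide, summed to 194 to 266 in WT and 310 to 368 in DKO arrays at 2.2 ng/ml, and to 88.4 to 118 and 268 to 322 at 10 ng/ml. The B cell list, with 3 or 4 of 4 at or below the guide in these groups, summed to 69.6 to 72.7 and 84.2 to 93.5, and to 62.1 to 68.3 and 107 to 153. The antigen presentation list went the other way, at 186 to 304 in WT and 125 to 172 in DKO arrays at 2.2 ng/ml. At 10 ng/ml it summed to 673 to 962 in WT and 435 to 498 in DKO arrays.

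With dose, 4 of the 20 markers rose in DKO cells and 1 fell, where 4.47% of all genes rose and 3.68% fell. In WT cells 1 rose and 3 fell, against 7.64% and 7.52%. The interaction was positive for 3 of the 20 and negative for none, against 3.56% and 3.38% of all genes. The 3 were Cd74 (adjusted p = 1.51e-05, limma), Ctss (adjusted p = 0.000469) and Cd79b (adjusted p = 0.00153). Cd74, the invariant chain, averaged 86.7 and then 38.2 in WT and 81.7 and then 185 in DKO cells at the 2 doses. Ctss, a lysosomal protease, averaged 176 and then 53.6 in WT and 284 and then 241 in DKO cells. Cd79b, a chain of the B cell receptor, averaged 34.0 and then 27.2 in WT and 43.4 and then 88.8 in DKO cells. H2-Ab1, a class II gene, rose with dose in both genotypes, from 94.7 to 777 in WT and from 22.9 to 227 in DKO cells. Cd79a, Ms4a1, Cd8a, Csf1r, Cd14 and Ncr1 averaged below the guide in every group. The part of other cells in the results was not tested.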

How the data were processed

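RNA of 24 samples was hybridised to Affymetrix Mouse Gene 1.0 ST arrays, labelled with biotin, per the labels' protocols. The deposited intensities are linear values that the authors made with RMA, per the submitters' processing notes; which program ran it is not given in the sources used here. Log2 of each value was taken with no further normalization. Of 35556 probe sets, 21789 carried 1 gene symbol in the platform annotation, 1621 several and 12146 none; only the first kind was used, and 21698 matched RefSeq by Entrez number. Of the tested genes, 999 had more than 1 such probe set, and the brightest on average was kept. One limma 3.58.1 model (R 4.3.3) held the 8 groups, with 14 contrasts and Benjamini-Hochberg adjustment over 19938 genes for each contrast. No filter on low values was applied; 2 members, Nr1h3 and Abca1, averaged at or below the background guide, the median of the probe set means. Intervals are 95% intervals from the moderated standard errors, and the 3 arrays per group limit the precision.

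The rule for named genes covered every member. For array values it chose those called in the interaction and the 8 with the smallest p in the WT dose comparison. It also chose the 4 in the genotype comparison at 10 ng/ml, and Srebf1, Srebf2, Insig1, Abca1, Abcg1 and Mylip. Not every group is printed for these, and Pmvk, Mvk, Sc5d, Tm7sf2, Dhcr7, Sqle and Abca1 are given without single arrays. Of each companion list up to 3 genes were named by the WT dose comparison. The members and lists were chosen with earlier results of these data known. In data simulated for the dose by genotype interaction over 19938 genes, the model recovered 2 of 50 genes at a log2 change of 0.5, 29 at 1, 48 at 1.5 and 49 at 2, with 4 of 132 calls on unchanged genes. Alternatives were cyclic loess and quantile normalization, a robust variance trend, array weights, the mean of probe sets, every probe set, a filter on dim genes, a replicate block, the compared groups alone, and arrays left out. Neither array batches nor mice are named in the labels.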

Additional observations from a re-analysis of the deposited data

Results flagged for a closer look

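For 17 genes the change from 2.2 to 10 ng/ml anti-CD3e differed between the genotypes in the interaction test, each with a larger change in DKO cells. On the log2 scale the difference was 2.01 for Idi1, 1.91 for Nsdhl, 1.90 for Hmgcs1, 1.88 for Msmo1, 1.70 for Fdps and 1.61 for Sc5d. It was 1.54 for Cyp51, 1.51 for Lss, 1.29 for Tm7sf2, 1.25 for Insig1, 1.25 for Pmvk, 1.13 for Dhcr7 and 1.09 for Sqle. It was 0.83 for Mvd, 0.73 for Mvk, 0.68 for Srebf1 and 0.61 for Srebf2. For 2 genes the change from day 0 to day 2 differed, with a smaller change in DKO cells: −0.78 for Hmgcs1 and −1.41 for Hsd17b7.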

How the results depend on the processing

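No member's called change reversed under any alternative, and of the single-gene comparisons 6357 kept their side of the threshold, 216 lost it and 40 gained it. Of 133 counts of called members with all arrays kept or the 2 doubted WT arrays dropped, 128 stayed within 1.5 times of the value reported. The WT dose count was 3 in place of 5 with the compared groups alone. The count for the day 2 by genotype interaction was 0 in place of 2 with cyclic loess, with quantile normalization, with the compared groups alone and with replicate 3 of WT day 2 and of WT 2.2 ng/ml both left out; the cause was not tested. With single arrays left out, the counts ran from 21 to 23 for WT day 2, 20 to 24 for WT 2.2 ng/ml, 20 to 22 for WT 10 ng/ml and 3 to 5 for the WT dose comparison. They ran from 17 to 20 for DKO day 2, 12 to 17 for DKO 2.2 ng/ml, 25 to 26 for DKO 10 ng/ml and 18 to 20 for the DKO dose comparison. Between genotypes they were 0 at day 0, 1 to 8 at day 2, 8 to 14 at 2.2 ng/ml, 11 at 10 ng/ml, 13 to 17 for the dose by genotype and 0 to 3 for the day 2 by genotype interaction. Quantile normalization moved the median change of all genes from −0.11 to 0.04 for WT day 2, and cyclic loess moved it to 0.03; the WT day 2 count of members stayed within 1.5 times under both.

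Same-numbered samples mostly did not deviate together: 4 of 84 correlations passed 0.1 and the median was 0.001. A sample matched its own number best in 31 of 84. Between the low and high dose WT groups, every sample matched its own number best. Those correlations were 0.054, 0.162 and 0.264, against 0.049, 0.042 and −0.085 for the best other number. The main model treated the numbers as names only, and pairing in the WT dose comparison was not tested apart from the replicate block. With the replicate block the interaction count stayed at 17, the DKO dose count at 20 and the WT dose count at 5, while the count at 2.2 ng/ml between genotypes was 16 and DKO day 2 was 21. With 3 arrays per group, smaller interactions were seldom called in the simulation: 29 of 50 differences of 1 on the log2 scale were recovered and 2 of 50 of 0.5. The simulated data had 132 calls and the real data 1384. The adjusted threshold was thus stricter in the simulation, and recovery may be understated.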
